A study of Mus musculus with 8 samples.

Results

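Cip2a, Set and 8 genes for subunits of protein phosphatase 2A (PP2A) were followed in mouse leukaemia cells grown in control medium or in medium conditioned by osteoclasts, the cells that resorb bone. The 10 genes were found by matching the Ensembl gene IDs of the count table to their symbols in GENCODE M21, and all 10 of the 21859 IDs sought were present. The group was chosen by the difference of Cip2a between the media in these same 8 samples, that is, by its fold change and p-value in the same contrast. Its difference between the media, and that of the other 9 genes, is therefore described with its error and without a test. The genes comprise the PP2A inhibitors Cip2a and Set, the catalytic subunits Ppp2ca and Ppp2cb, the scaffolds Ppp2r1a and Ppp2r1b, the B55-type subunit Ppp2r2a, and the B56-type subunits Ppp2r5a, Ppp2r5c and Ppp2r5e.

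The samples were 8 cultures of PER-M60, labelled as leukaemia cells of the mouse and used in every sample, of which 4 were grown in control media and 4 in osteoclast-conditioned media. No allele, culture time or other agent is named in the labels, nor what the conditioned medium contained, and all samples come from 1 cell line. The labels number them as replicates of each medium and do not say whether these were grown or processed on separate occasions. The p-values therefore measure the spread between these 8 samples, which are called cultures here. The comparison asks how the medium changed gene expression.

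PP2A is a serine/threonine phosphatase that works as a trimer. A scaffold subunit holds a catalytic subunit, and 1 of many regulatory subunits, of the B55, B56, PR72 or striatin type, directs the enzyme to its substrates. Cip2a and Set bind and restrain PP2A, and both are known in leukaemia for this role. Cip2a is best known for keeping the transcription factor Myc from being dephosphorylated and degraded, and it also tethers broken chromosomes in mitosis together with Topbp1.

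The stretch before the Cip2a start site is shown because Cip2a is the gene the results turn on. It is the 250 bases upstream of the start in RefSeq on GRCm38.p6, chr16:48993938-48994187 on the plus strand. Capitals mark a CCAAT box, beginning 84 bases before the start, and an ETS motif, CCGGAAGT read on the minus strand and so printed as its reverse complement, beginning 48 bases before it.

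Cip2a: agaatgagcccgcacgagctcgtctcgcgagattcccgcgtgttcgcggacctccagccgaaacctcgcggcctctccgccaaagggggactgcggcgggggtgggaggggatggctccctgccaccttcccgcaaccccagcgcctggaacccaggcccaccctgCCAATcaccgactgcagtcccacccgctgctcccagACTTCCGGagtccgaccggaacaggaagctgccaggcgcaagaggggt

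Both strands of these windows were searched for the letters named here, and the Cip2a matches do not overlap. Of 32851 promoter windows of the same length, 2.88% held CCGGAAGT and 33.8% held CCAAT. Cip2a held neither E2F motif searched (TTTCCCGC and TTTGGCGC, in 0.895% and 0.417% of windows), nor the E-box CACGTG (6.02%), nor the cell cycle element TTTGAA (16.0%). Promoter entries matched 7 of the 10 genes and not Ppp2cb, Ppp2r2a and Ppp2r5e. Among the matched genes, CCGGAAGT was also found for Ppp2r1a, TTTCCCGC for Ppp2r5a, and CACGTG and TTTGAA for Set, in 1 of its windows. CCAAT was found for Ppp2r5a, Ppp2r1a and Ppp2r1b, in both Set windows and in 1 of the Ppp2r5c windows, and not for Ppp2ca. A match describes the letters and does not show that a factor binds.

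The ends of the coding sequences of Ppp2ca and Ppp2cb are shown because these 2 genes are paralogs whose short identical stretches could share reads. Both are bases 841 to 930 of 930 coding bases in GENCODE M21, and capitals mark the 15 of 90 positions that differ.

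Ppp2ca: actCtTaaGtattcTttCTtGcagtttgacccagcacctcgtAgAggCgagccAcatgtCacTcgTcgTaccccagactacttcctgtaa

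Ppp2cb: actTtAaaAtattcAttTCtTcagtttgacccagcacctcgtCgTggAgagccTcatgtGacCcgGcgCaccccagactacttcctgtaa

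Over their whole coding sequences, 760 of 930 positions were identical (81.7%), and the longest identical run was 25 bases. The scaffolds Ppp2r1a and Ppp2r1b were 76.9% identical with a longest run of 23 bases. Identity among the B56 genes was 69.2% for Ppp2r5a and Ppp2r5c, 72.4% for Ppp2r5a and Ppp2r5e, and 69.4% for Ppp2r5c and Ppp2r5e.

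Library totals ran from 15391754 to 21637966 counts in control medium and from 16868383 to 19874229 in conditioned medium, and 3 counts, taken as the floor of detection, were 0.139 to 0.195 CPM, the count scaled to a common library size. Over all 10729 genes tested with edgeR, 30.5% had a Benjamini-Hochberg adjusted p under 0.05, with 1689 higher and 1584 lower in conditioned medium. Scaled by total counts only, the split was 1383 higher and 2012 lower. The median log2 fold change of all tested genes was -0.01, and -0.03 with total counts only. The B-lineage markers Cd79a, Cd79b, Pax5, Ebf1, Vpreb1, Igll1 and Blnk were each expressed in every culture, from 141 normalised CPM for the lowest value of Blnk to 1319.7 for the highest of Pax5. Cd79a ran from 503 to 525 in control medium and from 558 to 585 in conditioned medium. The 8 osteoclast markers summed to 35.4 to 36.8 and 34.1 to 37.5, with Ocstamp and Dcstamp at 0 in every sample. Of these 8, Itgb3 fell (12.9 to 10.7, edgeR adjusted p = 0.0185) and Acp5 had 22.9 and 24.4 (0.332). The 6 macrophage markers summed to 6.38 to 7.19 in control medium and 7.46 to 9.22 in conditioned medium, with C1qa and C1qb at 0 throughout. Of these 6, Lyz2 rose (4.46 ± 0.406 to 5.91 ± 0.865, edgeR adjusted p = 0.0119), Cd68 had 2.11 ± 0.372 and 2.13 ± 0.175 (0.946), and Csf1r and Adgre1 had totals of 18 and 7 counts. Of T cells, the 5 markers summed to no more than 0.175. The part of these cells in the results was not tested.

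Cip2a was lower in every culture in conditioned medium. Cip2a (ENSMUSG00000033031; chromosome 16, 48994185 to 49019709 in GRCm38) measured 152, 146, 152 and 152 normalised CPM (CPM after scaling by the trimmed mean of M values) in control replicates 1 to 4. In conditioned medium it measured 99.7, 107, 104 and 113. The groups did not overlap, and the lowest control culture stood well above the highest conditioned one. The means were 151 ± 3.08 and 106 ± 5.44 (SD, n = 4 each), 29.9% lower in conditioned medium, with a log2 fold change of -0.51 (SE 0.03). RNA from the whole culture was measured, so fewer cells with Cip2a RNA and less of it per cell cannot be told apart. Of all tested genes, 1.31% had a log2 fold change as low or lower. Cip2a rested on a total of 18381 counts, and its coefficient of variation within a medium was 3.92%, against 2.12% from counting alone. Scaled to the control mean, the conditioned cultures held 66.2% to 74.7% of Cip2a, and no other gene of the 10 fell below 85.7% in any culture.

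Set, a chromatin protein and PP2A inhibitor, was the most abundant of the 10 and differed little. Set (ENSMUSG00000054766; chromosome 2, 30057378 to 30072577) measured 1278, 1279, 1300.3 and 1272 normalised CPM in control medium and 1255, 1264, 1239 and 1216 in conditioned medium. The groups did not overlap, although the gap between them was small. The means were 1283 ± 12.3 and 1243 ± 21.2 (SD, n = 4 each), 3.05% lower in conditioned medium (log2 fold change -0.04, SE 0.02).

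**Figure D1:**
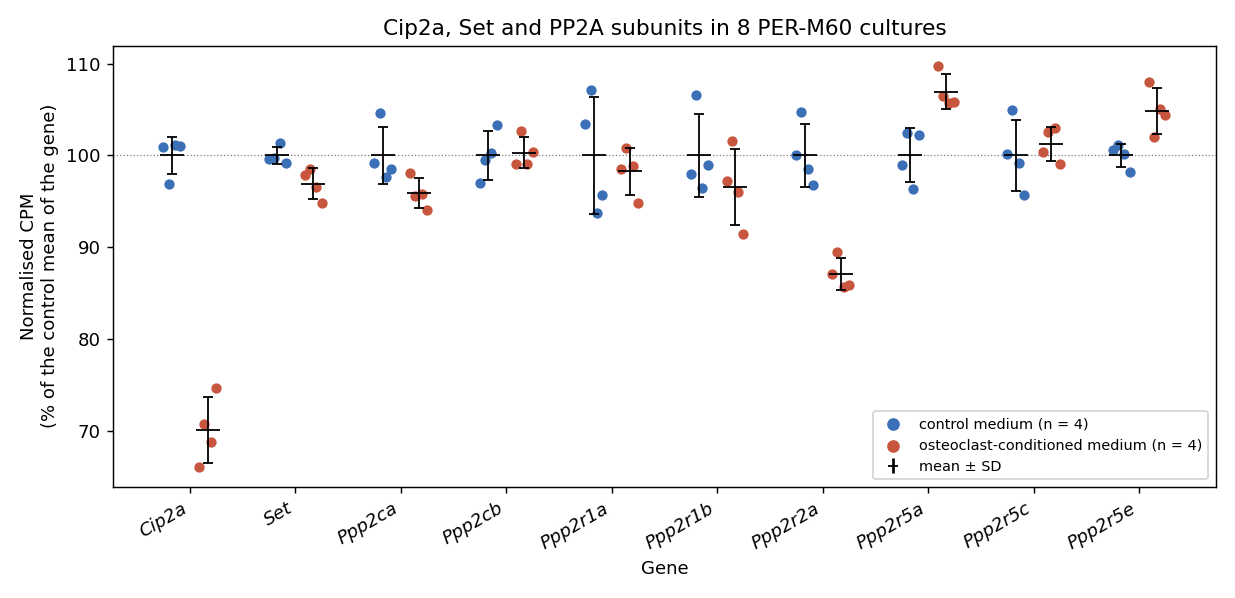
Normalised CPM of the 10 genes in each culture, as a percentage of the control mean of the gene (vertical axis). Points are cultures in control or osteoclast-conditioned medium and bars are the group mean with SD (n = 4). Cip2a separates from 96.9% and above in control medium to 74.7% and below in conditioned medium, while Ppp2cb and Ppp2r5c overlap.

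The catalytic subunits, which carry out the dephosphorylation, overlapped between the media. Ppp2ca (ENSMUSG00000020349; chromosome 11, 52098681 to 52127778) measured 335, 353, 330.0 and 333 normalised CPM in control medium and 331, 323, 324 and 318 in conditioned medium. Of the conditioned cultures, 3 lay below the lowest control culture and replicate 1 lay among the controls. Its means were 338 ± 10.6 and 324 ± 5.51 (SD, n = 4 each; log2 fold change -0.06, SE 0.03). Ppp2cb (ENSMUSG00000009630; chromosome 8, 33599625 to 33619441) measured 80.9, 83.0, 83.6 and 86.2 in control medium and 82.7, 85.6, 82.6 and 83.8 in conditioned medium. Every conditioned value fell inside the control range. Its log2 fold change was 0.00 (SE 0.03), and -0.02 when scaled by total counts only.

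The scaffold subunits, on which the trimer is built, overlapped as well. Ppp2r1a (ENSMUSG00000007564; chromosome 17, 20945311 to 20965916) measured 221, 229, 200.3 and 205 normalised CPM in control medium and 211, 216, 211 and 203 in conditioned medium. The control cultures spread more widely than the conditioned ones, whose values all lay inside the control range. Its log2 fold change was -0.03 (SE 0.04). Ppp2r1b (ENSMUSG00000032058; chromosome 9, 50845301 to 50894229) ran from 104 to 115 in control medium and from 98.6 to 109.5 in conditioned medium (log2 fold change -0.05, SE 0.04). Of the exon bases of Ppp2r1b, 22.2% overlap Sik2 on the opposite strand, and use of strand in counting is not given in the sources used here, so its counts are uncertain.

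Ppp2r2a, the B55α subunit that directs PP2A to mitotic substrates at the exit from mitosis, was lower in conditioned medium. Ppp2r2a (ENSMUSG00000022052; chromosome 14, 67014056 to 67072444) measured 155, 162, 152 and 149.7 normalised CPM in control medium. In conditioned medium it measured 135, 138, 133 and 133, and the groups did not overlap. The means were 155 ± 5.31 and 135 ± 2.69 (SD, n = 4 each), 13% lower (log2 fold change -0.20, SE 0.03).

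Of the B56-type subunits, which hold PP2A at the centromere and on signalling proteins, Ppp2r5a, Ppp2r5c and Ppp2r5e lay level or slightly higher. Ppp2r5a (ENSMUSG00000026626; chromosome 1, 191351975 to 191403272) measured 335, 347, 326 and 346 normalised CPM in control medium and 371, 360.3, 358 and 358 in conditioned medium. All conditioned cultures exceeded all controls, with means of 338 ± 9.94 and 362 ± 6.39 (SD, n = 4 each), 6.90% higher (log2 fold change 0.10, SE 0.03). Ppp2r5e (ENSMUSG00000021051; chromosome 12, 75450881 to 75596245) ran from 97.7 to 100.7 in control medium and from 101 to 107 in conditioned medium, with a log2 fold change of 0.07 (SE 0.03). The conditioned cultures again all lay above the controls, by a narrow margin. Ppp2r5c (ENSMUSG00000017843; chromosome 12, 110447120 to 110583062) ran from 235 to 258 in control medium and from 243 to 253 in conditioned medium (log2 fold change 0.02, SE 0.03, and -0.00 when scaled by total counts only). Its groups overlapped fully.

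All 10 genes passed the filter on low counts. At an adjusted p under 0.05, edgeR called 3 of them, Ppp2r5a higher and Cip2a and Ppp2r2a lower, beside 30.5% of all tested genes (15.7% higher, 14.8% lower). The cultures of the media did not overlap for 5 of the 10, beside 28.2% of all tested genes (15.2% higher, 12.9% lower). Since the same contrast chose the genes, nothing is read from either count.

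**Figure D2:**
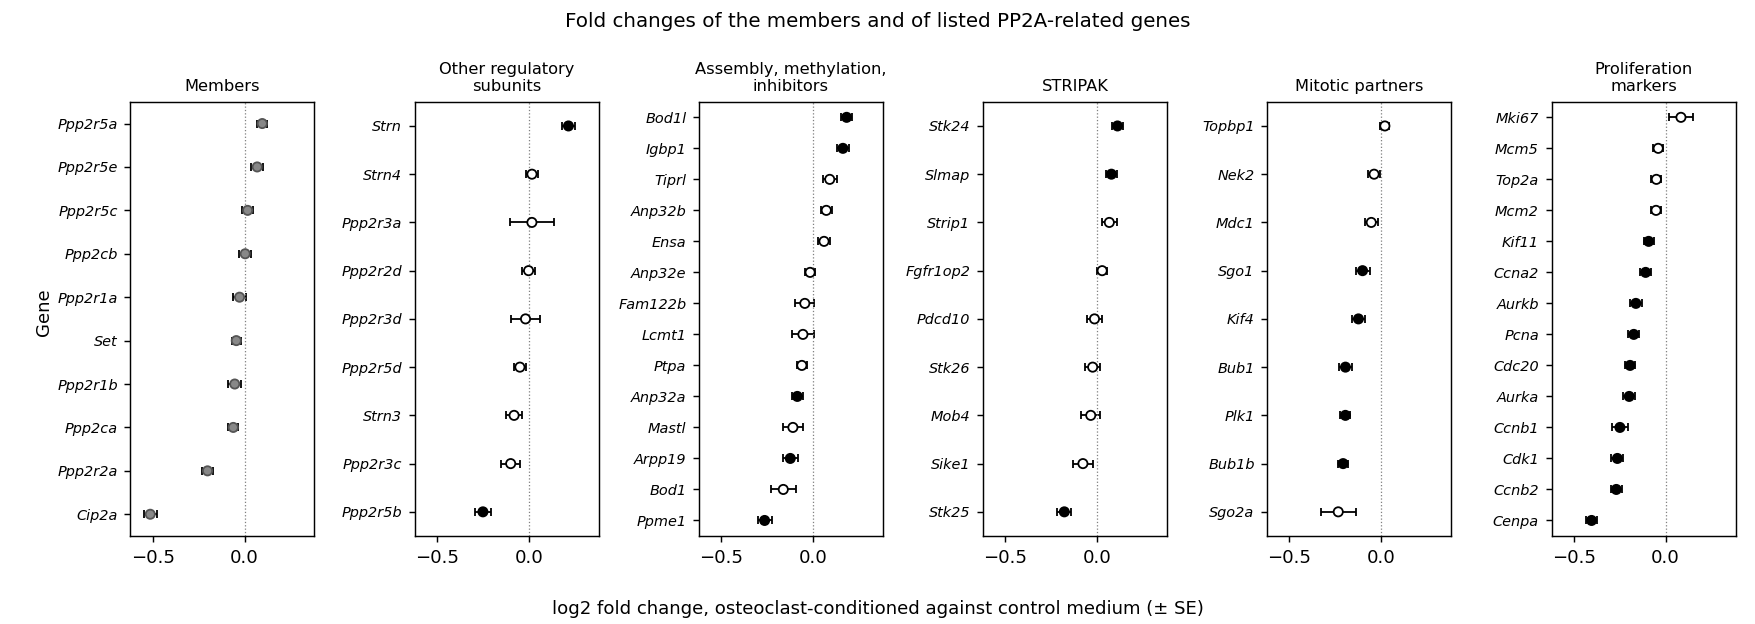
Log2 fold changes (conditioned over control medium, horizontal axis) with bars of 1 standard error. The 10 genes are in grey and without a test. Beside them are the tested genes of the lists of other regulatory subunits, assembly, methylation and inhibition, STRIPAK, mitotic partners and proliferation markers. Points of these lists are filled black where the edgeR adjusted p was under 0.05. Cip2a lies at -0.51, apart from the 8 subunit genes of the group, which run from -0.20 for Ppp2r2a to 0.10 for Ppp2r5a.

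Levels of different genes were compared per kilobase of exon, within each medium. The order in control medium was Set (315 normalised CPM per kilobase), Ppp2r1a (62.7), Ppp2cb (56.8), Ppp2ca (45.1), Ppp2r5a (35.2), Ppp2r5c (29.7), Ppp2r2a (28.7), Cip2a (26.5), Ppp2r5e (18.6) and Ppp2r1b (16.7). There, neighbours overlapped only for Ppp2r5c and Ppp2r2a, which did not differ beyond their spread. In conditioned medium Cip2a ran from 17.5 to 19.8 and Ppp2r5e from 19.0 to 20.1, so these 2 overlapped, and the order was otherwise as in control medium. The order depends on the length used. Per kilobase of coding sequence Ppp2ca came next after Set in both media and Ppp2cb was the seventh. On that scale Cip2a ran from 53.6 to 55.9 in control medium, overlapping Ppp2r1b at 49.9 to 55.1, and from 36.6 to 41.3 in conditioned medium, below Ppp2r1b at 47.3 to 52.5. Ppp2ca has a far longer annotated exon length than Ppp2cb (7490 against 1469 bases) and the same coding length, so which of these is the more abundant was not settled by these counts.

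The make-up of each subunit class was computed as the share of its summed exon-length-scaled level. Within the B55 class, Ppp2r2a took 67.5% ± 0.66 in control medium and 64.4% ± 0.70 in conditioned medium (SD, n = 4 each), with no overlap (66.8% to 68.3% against 63.6% to 65.3%). Only Ppp2r2a and Ppp2r2d were summed for that class, so Ppp2r2d holds all the rest. Ppp2r2b and Ppp2r2c, which fell below the filter on low counts, were left out. Within the 5 B56 genes, Ppp2r5a took 26.1% ± 0.64 and 27.9% ± 0.51 (25.3% to 26.8% against 27.6% to 28.7%), and Ppp2r5b took 14.0% ± 0.59 and 11.8% ± 0.70. Ppp2ca took 44.3% ± 1.11 and 43.2% ± 0.70 of the catalytic class, but 80.2% and 79.5% by coding length. Ppp2r5a and Ppp2r5b also moved with the length used, to 41.1% and 43.0% for Ppp2r5a and to 7.58% and 6.25% for Ppp2r5b. Ppp2r1a took 78.9% ± 0.66 and 79.2% ± 0.32 of the scaffold class. The B55 and B56 shares of Ppp2r2a and Ppp2r5a thus separated the media, and they come from the same counts as the levels above.

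**Figure D3:**
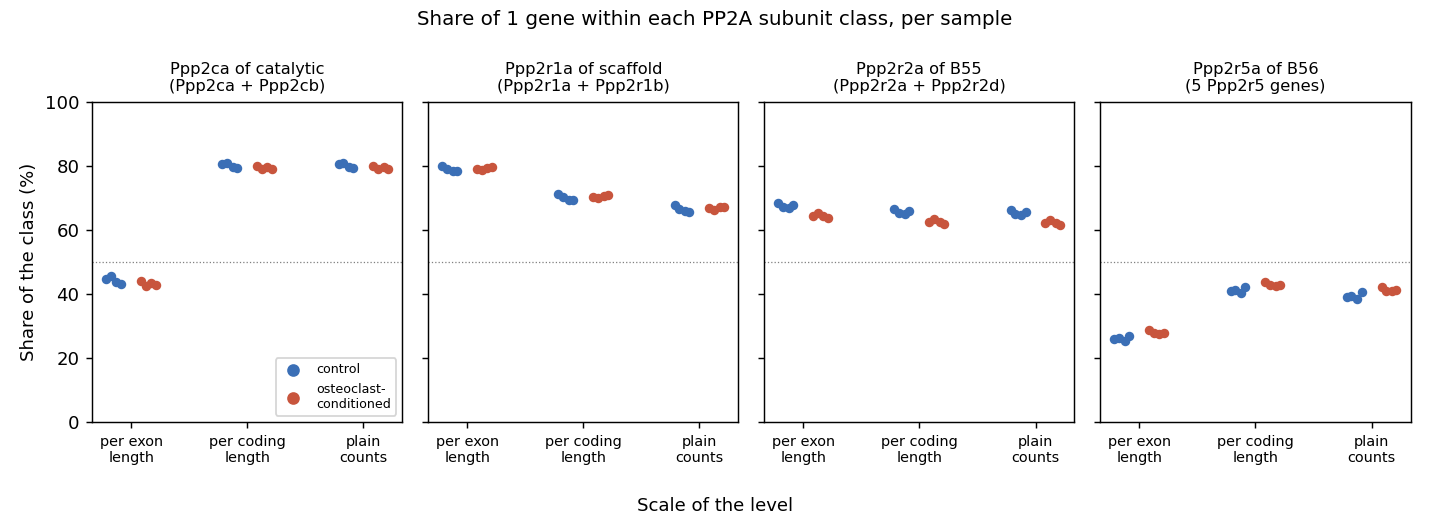
Share of its class (vertical axis, percent) taken by Ppp2ca, Ppp2r1a, Ppp2r2a and Ppp2r5a in each culture. Levels are scaled per exon length, per coding length or not at all, as plain counts (horizontal axis). Points are cultures, with the media side by side (n = 4 each). Per exon length, Ppp2r2a lies at 66.8% or above in control medium and 65.3% or below in conditioned medium, while the Ppp2r1a shares overlap.

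Of 11 other PP2A regulatory subunits, 9 were tested, 1 rose and 1 fell in conditioned medium, beside 15.7% higher and 14.8% lower of all tested genes. The median log2 fold change of the list was -0.02, beside -0.01 for all tested genes. Ppp2r5b, a B56 subunit, measured 67.6, 64.0, 61.5 and 62.2 normalised CPM in control medium and 49.6, 53.9, 54.2 and 57.4 in conditioned medium. Every conditioned culture lay below every control, and Ppp2r5b fell by 0.25 on the log2 scale (SE 0.04, edgeR adjusted p = 4.93e-05). Strn, striatin, the regulatory subunit that also builds the STRIPAK kinase and phosphatase complex, rose from 116, 130, 121 and 119 to 143, 142, 147 and 133. Its log2 fold change was 0.22 (SE 0.04, edgeR adjusted p = 3.81e-05), and its groups did not overlap. Ppp2r2d, the other B55 gene tested, had a log2 fold change of -0.00 (edgeR adjusted p = 0.988). Ppp2r5d had -0.05 (0.273), Strn3 -0.08 (0.180) and Strn4 0.02 (0.705), with Ppp2r3a, Ppp2r3c and Ppp2r3d also not past the threshold. Ppp2r2b and Ppp2r2c fell below the filter on low counts.

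Of 15 genes for PP2A assembly, methylation and inhibition, 14 were tested, 2 rose and 3 fell (median -0.05), a share near the 30.5% of all tested genes. Ppme1, the methylesterase that removes the methyl group from the end of the catalytic subunit, measured 63.7, 61.5, 63.0 and 60.7 normalised CPM in control medium and 52.1, 51.7, 51.9 and 51.6 in conditioned medium. The groups were wide apart for their spread, and Ppme1 fell by 0.26 on the log2 scale (SE 0.04, edgeR adjusted p = 2.88e-06). Lcmt1, the opposing methyltransferase, had a log2 fold change of -0.05 (edgeR adjusted p = 0.534). Among the genes that rose, Bod1l went from 178 ± 8.97 to 202 ± 3.91 (log2 fold change 0.18, edgeR adjusted p = 4.93e-05). Igbp1 (alpha4), which binds and stabilises free catalytic subunits, went from 81.0 ± 1.85 to 90.7 ± 2.14 (0.16, 0.000423). Arpp19, a PP2A-B55 inhibitor in mitosis once phosphorylated, fell by 0.12 (edgeR adjusted p = 0.0183), a call lost without control replicate 3 (0.104) or conditioned replicate 2 (0.0774). Anp32a, an inhibitor that binds the catalytic subunit, fell by 0.09 (edgeR adjusted p = 0.0288). Its call was lost without control replicate 1 (0.0663), 3 (0.149) or 4 (0.0520), or conditioned replicate 3 (0.123) or 4 (0.0798). Fam122a had 0 counts in every sample and lies inside another gene, so its counts give no measure of it.

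Of 9 mitotic partners of PP2A and Cip2a, 5 fell and 0 rose in the edgeR test (median -0.12), beside 14.8% lower and 15.7% higher of all tested genes, whose median was -0.01. Bub1b, the checkpoint protein that brings PP2A-B56 to the kinetochore, measured 273, 283, 277 and 267 normalised CPM in control medium and 240.4, 243, 232 and 238 in conditioned medium. The groups did not overlap, and Bub1b fell by 0.21 on the log2 scale (edgeR adjusted p = 7.83e-07). The mitotic kinase Plk1 went from 228 ± 3.05 to 199 ± 3.00 (-0.20, 1.52e-06), and the checkpoint kinase Bub1 from 146 ± 8.37 to 128 ± 1.98 (-0.20, 6.45e-05). Smaller falls were those of the kinesin Kif4 (-0.12, 0.00845) and of the shugoshin Sgo1, which protects centromeric cohesion with PP2A (-0.10, 0.0404). The Kif4 call was lost without control replicate 4 (0.0508), and 15.1% of its exon bases overlap another gene. The Sgo1 call was lost without control replicate 2 (0.191) or 3 (0.0571), without conditioned replicate 1 (0.0794), 2 (0.0900) or 3 (0.150), and with DESeq2 (0.0851). Topbp1, which joins Cip2a on broken mitotic chromosomes, had 376 ± 4.20 and 381 ± 2.36 (0.02, edgeR adjusted p = 0.599).

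Most proliferation markers were lower in conditioned medium, as Cip2a was. Of 14 tested, 10 fell and 0 rose (median -0.17), beside 14.8% lower and 15.7% higher of all tested genes, and their summed level ran from 6119 to 6505 normalised CPM in control medium and from 5919 to 6162 in conditioned medium, which overlap. The centromeric histone Cenpa fell by 0.40 on the log2 scale (edgeR adjusted p = 4.07e-11). The mitotic cyclins Ccnb2 and Ccnb1 fell by 0.27 and 0.25 (edgeR adjusted p = 1.48e-08 and 0.000787). The kinases Cdk1 and Aurka fell by 0.26 and 0.20 (edgeR adjusted p = 1.84e-07 and 2.96e-05). Mki67 had a log2 fold change of 0.08 (edgeR adjusted p = 0.377), and Bub3 was at 0 counts and lies inside another gene. The part of cell cycling in the Cip2a difference was not tested.

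Of 6 genes reported as inducers of Cip2a or stabilised through it, 1 fell in conditioned medium and 0 rose (median -0.02), beside 14.8% lower and 15.7% higher of all tested genes. The gene that fell was Myc, the transcription factor whose protein Cip2a shields, which went from 809.9 ± 36.5 to 748 ± 30.9 normalised CPM (log2 fold change -0.11, edgeR adjusted p = 0.00996). The Myc call was lost without control replicate 1 (0.0537) or 4 (0.0600), and without conditioned replicate 2 (0.0585) or 3 (0.0501). E2f1 had -0.08 (0.122), Ets1 0.04 (0.320), Elk1 0.11 (0.168), Chek1 -0.09 (0.0703) and Atf2 0.03 (0.480), as log2 fold change and edgeR adjusted p. RNA counts do not measure the Myc protein.

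STRIPAK components and related phosphatases were called about as often as all tested genes (30.5%). Of 9 STRIPAK genes tested of 11, 2 rose and 1 fell (median -0.01), while Strip2 and Cttnbp2nl fell below the filter on low counts. The kinase Stk24 rose by 0.11 (edgeR adjusted p = 0.00318), and the related kinase Stk25 fell by 0.18 (0.000542), with 38.3% of its exon bases overlapping another gene. Slmap rose by 0.08 (0.0385), a call lost with total counts only (0.122) and DESeq2 (0.0563), without control replicate 1 (0.141) or 3 (0.0619), or without conditioned replicate 1 (0.0615), 2 (0.0866) or 3 (0.106). Of 17 related phosphatase genes, 3 rose and 3 fell (median -0.00). The calcineurin catalytic subunits Ppp3cc and Ppp3ca rose by 0.20 and 0.19 (edgeR adjusted p = 4.66e-05 and 2.43e-05), and Ppp6r1, a PP6 regulatory subunit, rose by 0.12 (0.000576). Ppp5c fell by 0.14 (edgeR adjusted p = 0.00142). The PP6 catalytic subunit Ppp6c fell by 0.11 (0.0326). The Ppp6c call was lost with DESeq2 (0.0703), without control replicate 2 (0.198), and without conditioned replicate 1 (0.104), 2 (0.0545), 3 (0.0687) or 4 (0.0506).

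The genes whose profile over the 8 cultures was nearest to that of Cip2a were found as a description. Likeness was the root mean square difference of log2 CPM after each gene's mean was removed, over the 6955 genes whose mean reached 20 CPM, for which the median was 0.27. The nearest were Ivns1abp (0.04) and Zbtb32 (0.04), followed by Cd22 (0.06), Neil3 (0.07) and Camkv (0.07). Ivns1abp went from 303.8 to 219 normalised CPM, Zbtb32 from 66.3 to 48.6, Cd22 from 136 to 100.5, Neil3 from 72.8 to 54.1 and Camkv from 28.7 to 20. Their log2 fold changes ran from -0.51 to -0.43, and likeness to Cip2a by itself requires a value near its own. Cd22 is a B-cell receptor inhibitor and Neil3 a DNA glycosylase. Ppp2r2a, the gene of the 10 with the next lowest log2 fold change, was the 367th nearest.

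**Figure D4:**
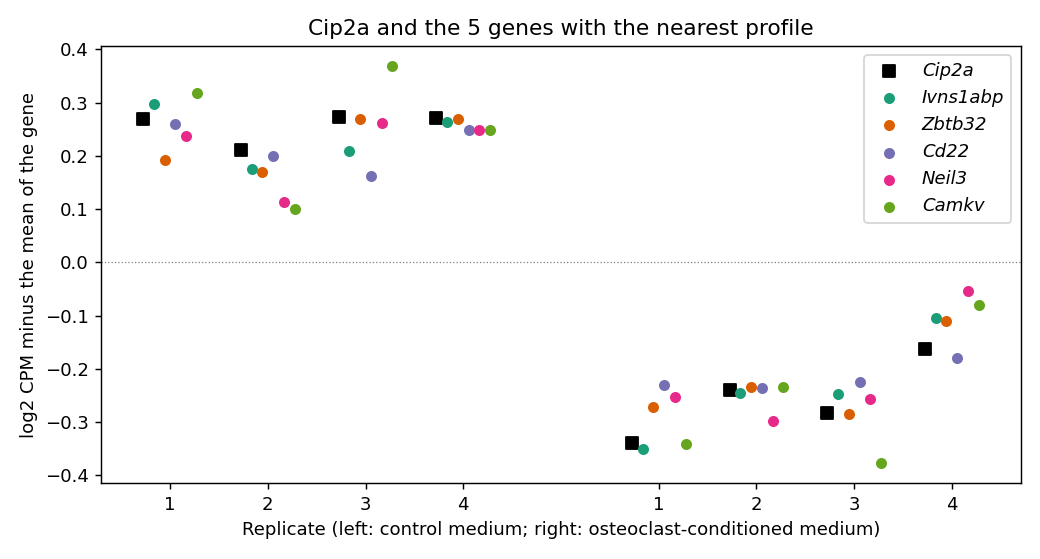
Log2 CPM after removal of each gene's mean (vertical axis) in the 8 cultures (horizontal axis, control replicates then conditioned replicates), with squares for Cip2a and other symbols for the 5 genes nearest to it. All 6 lie above 0 in the control cultures and below 0 in the conditioned ones.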

How the data were processed

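RNA sequencing was done on 8 cultures (SureSelect HS2 libraries, per the labels' protocols). The authors deposited counts, unnormalised whole numbers for each Ensembl ID, and the submitters' processing notes name STAR 2.7.5a, featureCounts 2.0.1 and the build mm10. Strand setting, annotation and use of molecular barcodes are not given in the sources used here. Reads that match more than 1 subunit gene or overlapping genes may therefore be lost or shared.

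Symbols, positions and lengths came from GENCODE M21 on GRCm38, which matched 21817 of 21859 IDs. Counts were filtered with filterByExpr (10729 genes passed), scaled by TMM and tested with edgeR 4.0.16 in R 4.3.3 (glmQLFit with robust estimation, glmQLFTest), with Benjamini-Hochberg adjustment over all tested genes and a threshold of 0.05. Every adjusted p in the text comes from that test unless another tool is named. The fit was also run on counts simulated from the levels and spread estimated here. That run cannot show whether the fit suits these data. Log2 CPM used a prior count of 2. Class shares divided counts by annotated exon length. Promoter windows came from RefSeq on GRCm38.p6.

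The 10 genes and the 7 lists were chosen with earlier results of these data known. All 10 genes are named, as are the called genes of each list (the 5 with the largest absolute change where more were called), those below the filter, and the 5 genes nearest to Cip2a. Other list genes are given as background to these. Alternatives were other scalings, filters and tests (DESeq2 1.42.0, limma-voom from limma 3.58.1), no robust estimation, a replicate block, leaving out each culture, and, for shares, plain counts or coding length, the last chosen after seeing the data. No batch is named in the labels. The floor of 3 counts covers counting error only, while SDs are between cultures. SEs come from the edgeR fit, which estimates the variation of each gene with information from the other genes. A marker of the lists is not reported here.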

Additional observations from a re-analysis of the deposited data

Results flagged for a closer look

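For 45 items, each medium's extreme culture was set against its other 3 cultures by Dixon's ratio (its distance to the closest one, as a part of the whole range). Of 90 groups, 5 exceeded the 95% critical value, where chance gives about 4.5. Cip2a was lowest in control replicate 2, at 146 normalised CPM against 152 in each of the others (ratio 0.942). Neil3, one of the genes nearest to Cip2a, was also lowest in that culture among the controls, at 67.8 against 73.9 to 75.2 (ratio 0.831). In conditioned replicate 4 Neil3 was highest of its medium, at 60.3 against 51.0 to 52.5 (ratio 0.830), and Cdk1 was lowest, at 113 against 123 to 124 (ratio 0.908). The Ppp2r5a share of the B56 class was highest in conditioned replicate 1, at 28.7% against 27.6% to 27.8% (ratio 0.839).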

How the results depend on the processing

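For the main results, 355 values under an alternative kept their side of the threshold, stayed within 1.5 times the count, or moved less than the spread between replicates, while 9 moved further, 5 fell under the threshold or tolerance and 1 rose past it. No called value changed sign, but 3 of the genes near 0 did: Ppp2r1a without control replicate 2 (0.01), and Ppp2cb (-0.02) and Ppp2r5c (-0.00) with total counts only, both also in fits that left out 1 culture. The replicate block called 3446 genes (1759 higher, 1687 lower), gave Cip2a a log2 fold change of -0.51 and changed the count of 1 list, assembly, methylation and inhibition, to 6. Same-numbered cultures deviated together little (mean r 0.037, from -0.051 to 0.143, against -0.013 for other numbers), and 3 of 8 cultures correlated best with their own number. Leaving out each culture gave 2635 to 3578 called genes, a Cip2a log2 fold change of -0.54 to -0.48, and -0.05 to 0.01 for Ppp2r1a, which has no test. DESeq2 called 2672 genes. The list of Cip2a inducers and Myc had 3 called genes with total counts only (0 higher) and from 0 to 1 when a culture was left out, and the log2 fold change of Set was -0.066 with total counts only. Over all cultures, shares by coding length were 79.8% for Ppp2ca, 70.2% for Ppp2r1a, 64.2% for Ppp2r2a and 42.0% for Ppp2r5a. With plain counts they were 79.8%, 66.7%, 63.9% and 40.3%, against 43.7%, 79.1%, 66% and 27.0% by exon length. Lengths alone make these differ. By largest absolute difference, 3 of the 5 genes nearest to Cip2a were shared (Ivns1abp, Zbtb32 and Neil3). Of 26 named list genes, 19 kept their call under all 16 alternatives. Depth limits Ppp2r2b, Ppp2r2c, Strip2 and Cttnbp2nl, in which a difference was not detectable.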
